A study of Mus musculus with 10 samples.

Results

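The 9 Kruppel-like factor genes Klf2, Klf3, Klf4, Klf6, Klf7, Klf9, Klf10, Klf13 and Klf15 were followed across the cell types of the mouse medial prefrontal cortex. They were taken by symbol from the gene lists deposited with the count matrices, in which each occurred once, and they are 9 of the 30406 genes present in every library. Another 17 genes of the Klf and Sp family were in the same lists. The libraries came from male C57BL/6N mice, an inbred strain, that carried no engineered allele named in the labels, received no drug named there and were over 2 months old. There were 5 libraries of rank 1 (dominant) mice and 5 of rank 4 (subordinate) mice. Rank rests on the tube test, in which mice meet head-on in a narrow tube and one gives way. Brains were taken 1 day after the last such test, and all tissue was digested with papain for 60 min at 37 °C before droplet capture. Each library mixed cells from 2 or 3 mice, so 1 library is 1 replicate and single mice cannot be told apart. The comparison between the ranks asks whether the level of a factor within a cell class differed with social standing.

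Kruppel-like factors are transcription factors with a conserved zinc finger domain at the carboxyl end that binds GC-rich and CACCC-type elements. Their amino-terminal parts differ and recruit coactivators or corepressors: Klf3 binds the corepressor CtBP, whereas Klf9, Klf10 and Klf13 recruit the Sin3A complex. In blood vessels, Klf2 and Klf4 are known as flow-responsive regulators of endothelial quiescence, induced through the MEKK3, ERK5 and MEF2 pathway. Klf9 and Klf15 are known glucocorticoid-responsive genes, Klf6 and Klf10 respond quickly to injury and growth factor signals, and Klf7 is known for its role in axon growth.

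On the GRCm38 build, GENCODE M21 places Klf2 at chr8:72319033-72321656 on the forward strand, Klf4 at chr4:55527143-55532466 on the reverse strand and Klf15 at chr6:90462576-90475238 on the forward strand. No other annotated gene overlaps these, nor Klf6 at chr13:5861482-5870394 or Klf10 at chr15:38291463-38300706. Klf3 lies at chr5:64803388-64832901, Klf7 at chr1:64029447-64122282, Klf9 at chr19:23141226-23168134 and Klf13 at chr7:63886351-63938915. Klf3, Klf7 and Klf13 each overlap at least 1 annotated gene on the opposite strand, so their counts carry a caution if strand was not used in counting, which is not given in the sources used here.

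RefSeq promoter sequences (GRCm38.p6) were found for 8 of the 9 genes. The 250 bases before the start site are shown for Klf2 and Klf4 and for Klf15, which was highest in astrocytes. Klf2 and Klf4 had the most alike levels among the members over all points of a class in a library. The sequences run 5′ to 3′ along the gene's own strand, at chr8:72318812-72319061 (forward), chr4:55532476-55532725 (reverse) and chr6:90462326-90462575 (forward). Capitals mark matches, on either strand, to the MEF2 consensus, to the CACCC-like motif CCNCNCCC and to the E-box CACGTG.
Klf2: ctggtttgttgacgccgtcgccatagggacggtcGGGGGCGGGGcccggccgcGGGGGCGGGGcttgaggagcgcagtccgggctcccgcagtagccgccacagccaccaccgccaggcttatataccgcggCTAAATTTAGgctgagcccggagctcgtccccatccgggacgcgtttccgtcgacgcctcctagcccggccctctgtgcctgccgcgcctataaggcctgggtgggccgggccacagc
Klf4: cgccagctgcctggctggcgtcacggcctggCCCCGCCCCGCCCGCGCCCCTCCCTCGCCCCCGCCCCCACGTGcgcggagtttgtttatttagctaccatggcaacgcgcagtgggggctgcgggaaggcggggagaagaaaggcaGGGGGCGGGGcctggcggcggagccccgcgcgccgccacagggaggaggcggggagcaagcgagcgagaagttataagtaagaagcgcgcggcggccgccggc
Klf15: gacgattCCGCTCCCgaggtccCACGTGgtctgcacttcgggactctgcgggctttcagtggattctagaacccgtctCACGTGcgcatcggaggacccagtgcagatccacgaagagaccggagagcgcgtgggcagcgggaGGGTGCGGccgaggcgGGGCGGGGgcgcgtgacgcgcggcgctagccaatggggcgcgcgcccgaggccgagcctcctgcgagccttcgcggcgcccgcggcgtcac
The MEF2 consensus stood between bases 118 and 109 before the start of Klf2 and in no other member's window, against 0.518% of 27025 RefSeq windows of the same length. CCNCNCCC was present in 7 of the 8 windows, all but that of Klf9, and in 45.6% of all windows. CACGTG was present in Klf4, Klf6 and Klf15 and in 6.05% of all windows, and its match in Klf4 overlaps a CCNCNCCC match by 1 base. In Klf15 it occurred at bases 228 to 223 and again at bases 172 to 167 before the start. The cyclic AMP response element TGACGTCA and the glucocorticoid half-site AGAACA, searched on both strands, were in none of the 8 windows, against 1.62% and 16.2% of all. A match describes the letters only, and its absence says only that the letters are not in these windows.

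Raw counts of unique molecular identifiers (UMIs, 1 per captured RNA molecule) were available for 64937 barcodes, with 4442750 to 29278466 UMIs per library. After filtering, 44764 cells remained, with a median of 1304 to 2642 UMIs per cell depending on the library. They were clustered without the 9 genes, and clusters were named from marker lists: 16247 excitatory neurons, 2052 inhibitory neurons, 8881 astrocytes, 3225 oligodendrocyte precursors, 263 committed precursors, 2284 oligodendrocytes, 3464 microglia, 176 perivascular macrophages, 4183 endothelial cells, 1637 pericytes, 393 smooth muscle cells and 77 fibroblasts, each name meaning "like" that type. Fibroblasts had no library with 20 cells and were not followed. In 10 of the other 11 classes each marker of the class had its highest level there, in oligodendrocyte precursors 5 of 6 did, and no defining marker was at 0 in its class. Another 1882 cells stayed unnamed, or 4.20% of all and 16.8% and 11.1% of the 2 libraries of replicate 1. Libraries fell apart by replicate number in both ranks. The headers of the deposited matrices name software version 3.1.0 for replicates 1 to 3, whereas version 4.0.0 stands in the headers of replicates 4 and 5. Within the first set the 2 libraries of replicate 1 stood apart from those of replicates 2 and 3. Smooth muscle cells made up 2.55% to 6.64% of cells in replicates 2 and 3 of both ranks and 0.0680% to 0.486% elsewhere. Libraries shared at most 0.937% of the barcodes of the smaller one. Levels below are in CPM, the UMIs of a gene summed over the cells of a class in 1 library and scaled to a fixed total, given only for libraries with at least 20 such cells and written in the order of replicates 1 to 5.

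**Figure D1:**
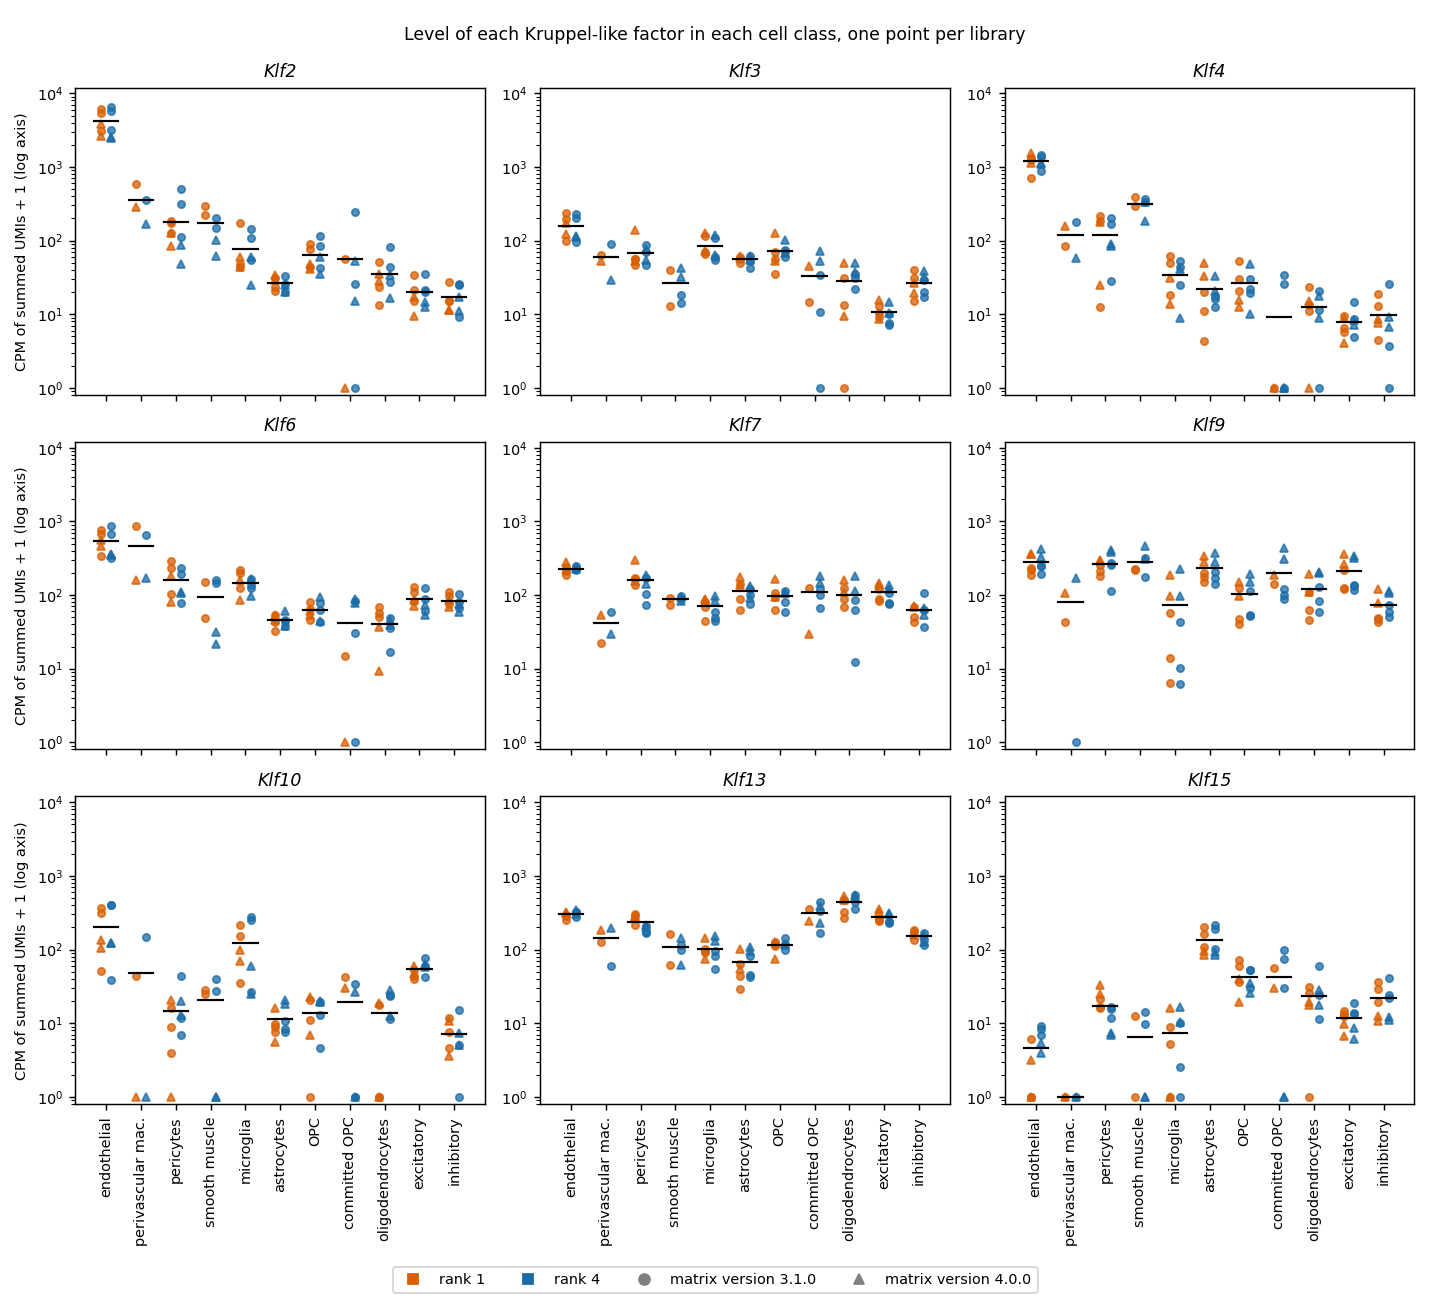
Level of each factor in each cell class, as CPM of summed UMIs plus 1 on a log axis. Each point is 1 library, colour gives the rank, shape gives the software version of the matrix and the black bar is the mean over libraries. Klf2 and Klf4 stand highest in endothelial cells, Klf15 in astrocytes and Klf13 in oligodendrocytes, while Klf9 is spread over most classes.

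Klf2 and Klf4, the flow-responsive pair, marked endothelial cells. Klf2 reached 3122, 5381, 6059, 3847 and 2662 CPM in endothelial cells of the rank 1 libraries and 3184, 6615, 5747, 2475 and 2557 CPM in those of rank 4. Both ranks were highest in replicates 2 and 3, and their ranges overlapped. The mean was 4165 ± 1613 CPM (SD, n = 10), ahead of 350.0 ± 177 CPM (SD, n = 4) in perivascular macrophages, a class with only 57 Klf2 UMIs in those 4 libraries. That class is not of 1 kind: at a higher clustering resolution its 176 cells split into 100 named perivascular macrophages and 74 named neutrophils and monocytes, with 2 unnamed, and Klf2 pooled over libraries was at 281 and 379.8 CPM in the 2 named parts. Endothelial cells were higher in 4 of the 4 libraries that held both classes (log2 fold change 4.12, SE 0.37, adjusted p = 3.87e-17, by edgeR's quasi-likelihood test with the library as a block and Benjamini-Hochberg adjustment over all genes). The median of all genes in that contrast was 0.92, and 0.18 with relative log expression scaling, under which Klf2 was at 3.34. Pericytes followed at 176 ± 138 CPM (SD, n = 10) and smooth muscle cells at 171 ± 83.7 CPM (SD, n = 6), which did not differ beyond their spread. Microglia held 74.8 CPM, oligodendrocyte precursors 62.8 CPM, and the lowest levels were in excitatory neurons (19.2 CPM) and inhibitory neurons (15.9 CPM).

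Klf4 reached 701, 1235, 1327, 1538 and 1136 CPM in endothelial cells of rank 1 and 878, 1461, 1387, 1085 and 1124 CPM in those of rank 4. The lowest values of both ranks were those of replicate 1. Smooth muscle cells, in which Klf4 is known to govern the switch away from the contractile state, came next at 317 ± 72.7 CPM (SD, n = 6), and endothelial cells were higher in 6 of 6 libraries with both (log2 fold change 2.18, SE 0.30, adjusted p = 1.47e-09, against 0.46 for the median gene). Perivascular macrophages and pericytes followed at 119 and 118 CPM and did not differ beyond their spread. In pericytes Klf4 ran from 11.7 to 213 CPM, with the 4 libraries of replicates 2 and 3 and rank 1 replicate 4 between 167 and 213 CPM and the others between 11.7 and 88.9 CPM. Replicates 2 and 3 were also the libraries with the most smooth muscle cells, whose part in the pericyte level was not tested. Excitatory neurons were lowest at 6.81 CPM.

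As a share of cells, 85.9% ± 7.35 (SD, n = 10) of endothelial cells had a Klf2 UMI once every cell was thinned to 1000 UMIs, and 86.3% did without thinning. The thinned share was 2.25% in excitatory neurons and 2.50% in astrocytes. That of inhibitory neurons was 1.22% on average and reached 3.80% in its highest single library. Free RNA was not measured, and its part in these low shares was not tested. Median depths were 1686 UMIs in the endothelial cells kept for thinning and 2995 UMIs in the inhibitory neurons, and 1454 endothelial cells and 169 inhibitory neurons were too shallow to thin. For Klf4 the thinned share was 56.0% ± 10.5 (SD, n = 10) for endothelial cells, 24.4% for smooth muscle, 8.38% in pericytes and 0.823% in excitatory neurons.

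The genes around Klf2 and Klf4 were read from lists, with endothelial cells set against pericytes, the other main vascular class. Of the 10 genes of the MEKK3, ERK5 and MEF2 pathway and its CCM inhibitors, 4 were higher in endothelial cells, 0 were lower, where 20.6% of all genes were higher and 33.6% were called in either direction, and the median log2 fold change was 0.46 against 0.03 over all genes. Those higher, with their log2 fold changes, were Heg1, the cell surface partner of the CCM complex (2.07), Map3k3, which encodes MEKK3 (1.07), Mef2a (0.88) and Ccm2 (0.61). Mapk7, which encodes ERK5, did not pass the test (0.63). Of 7 tested endothelial target genes of the pair, 5 were higher and 1 was lower, with a median of 3.18. The list does not part targets the pair raises from those it lowers, so these counts say nothing on the direction of its action. Edn1, the precursor of the vasoconstrictor endothelin 1 (6.10), Nos3, the endothelial nitric oxide synthase (4.63), S1pr1 (4.59), Vcam1 (3.18) and the anticoagulant receptor Thbd (2.35) were higher, and Adamts4 was lower (-1.47). In the same contrast Klf2 itself was higher by a log2 fold change of 5.00 and Klf4 by 3.89. Against astrocytes the pathway list gave 7 higher and 1 lower, and the targets 4 higher and 2 lower, the latter S1pr1 (-1.05) and Vcam1 (-1.94), where 28.7% of all genes were higher and 31.3% lower.

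Of the 6 corepressor genes (Sin3a, Sin3b, Hdac1, Hdac2, Ctbp1 and Ctbp2), 2 were higher in endothelial cells than in pericytes and 0 lower, against the 20.6% of all genes higher. Against excitatory neurons 3 were higher and 1 lower, where 35.6% of all genes were higher and 40.2% lower. Among the 10 tested Klf and Sp genes outside the 9, 3 were higher in endothelial cells than in pericytes and 0 lower, a share near the 20.6% of all genes. Klf11, the nearest relative of Klf10, was higher in endothelial cells, with log2 fold changes of 1.72 against pericytes and 3.37 against excitatory neurons. Klf5 was lower in endothelial cells than in excitatory neurons (log2 fold change -1.89).

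Klf6, Klf10, Klf3 and Klf7 were also highest in endothelial cells, but with other classes closer behind. Klf6 reached 336, 773, 677, 557 and 462 CPM in endothelial cells of rank 1 and 316, 865, 681, 345 and 357 CPM in those of rank 4. Replicates 2 and 3 were highest and replicate 1 lowest in both ranks. Perivascular macrophages came close at 459 ± 353 CPM (SD, n = 4), and pooled over libraries the part of them still so named at the higher resolution was at 511 CPM against 229 CPM in the part named neutrophils and monocytes. Endothelial cells were higher in 3 of 4 libraries (log2 fold change 0.88, SE 0.29, adjusted p = 0.0173), yet the median of all genes in that contrast was 0.92, and with relative log expression scaling the log2 fold change of Klf6 was 0.08, so the 2 classes were not told apart for Klf6. The call also ended without rank 1 replicate 3, 4 or 5 or without rank 4 replicate 2, 3 or 5, and leaving out single libraries gave values from 0.54 to 1.31. Pericytes (159.7 CPM) and microglia (146 CPM) followed without differing beyond their spread, and oligodendrocytes were lowest at 39.9 CPM.

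Klf10, a gene induced early by TGF-beta, was highest in endothelial cells and microglia. Endothelial cells held 49.4, 313, 366, 135 and 105 CPM in rank 1 and 37.6, 396, 397, 121 and 121 CPM in rank 4. Microglia held 33.8, 150.3, 217, 96.9 and 69.1 CPM in rank 1 and 25.6, 248, 277, 23.7 and 58.7 CPM in rank 4. In both classes replicates 2 and 3 stood above all other libraries. Endothelial cells were above microglia in 10 of 10 libraries (log2 fold change 0.61, SE 0.24, adjusted p = 0.0327), a call that ended without rank 1 replicate 2, without rank 4 replicate 5 or with replicates 1 to 3 alone, at log2 fold changes of 0.49 to 0.61. Excitatory neurons held 53.2 ± 11.3 CPM (SD, n = 10) and perivascular macrophages 47.1 ± 69.0 CPM (SD, n = 4) on 7 UMIs, with excitatory neurons higher in 2 of the 4 libraries that held both. Every other class with 10 libraries lay between 6.15 and 13.6 CPM on average. Inhibitory neurons, at 6.15 ± 4.25 CPM (SD, n = 10), did not overlap with excitatory neurons in any library.

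Klf3, a repressor of the CtBP type, was at 158 ± 55.0 CPM (SD, n = 10) in endothelial cells and 84.4 ± 28.6 CPM (SD, n = 10) in microglia. Endothelial cells were higher in 7 of 10 libraries (log2 fold change 0.67, SE 0.17, adjusted p = 7.55e-04), and replicates 4 and 5 alone gave 0.45 with no call. The single values were 97.1, 235, 195, 173 and 124 CPM in rank 1 and 93.7, 204, 226, 112 and 116 CPM in rank 4, again highest in replicates 2 and 3. Oligodendrocyte precursors, pericytes, perivascular macrophages and astrocytes lay between 54.6 and 70.4 CPM, and excitatory neurons were lowest at 9.62 ± 2.81 CPM (SD, n = 10). Klf7 had no such peak. It held 209, 186, 238, 280.1 and 215 CPM in endothelial cells of rank 1 and 220.2, 244, 229, 239 and 224 CPM in those of rank 4, where the highest single library was rank 1 replicate 4. Pericytes came next at 159 ± 59.2 CPM (SD, n = 10), below endothelial cells in 9 of 10 libraries (log2 fold change 0.80, SE 0.15, adjusted p = 3.48e-06). Astrocytes, precursors, oligodendrocytes and excitatory neurons all lay between 97.5 and 111 CPM and were not separated by their spread.

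Endothelial cells were not uniform. The class was made of 3 clusters, found without the 9 genes, of 2456, 1394 and 333 cells with medians of 1092, 1282 and 3379 UMIs per cell. Pooled over libraries, Klf2 was at 2508, 5277 and 3879 CPM in them, Klf4 at 570.0, 1848 and 1192 CPM, and Klf10 at 72.1, 298 and 113 CPM. Jun, an immediate early gene, took the same order in the first pair, at 976 and 2828 CPM, with 1515 CPM in the third. Unlike the 9 factors, Jun was not left out of the clustering. Klf7, Klf9 and Klf13 varied less, with Klf13 between 272 and 335 CPM. The clusters drew on the libraries unequally, with the middle one holding 6.11% to 62.3% of the endothelial cells of a library and the most in replicates 2 and 3. Within single libraries it was above the first cluster in 10 of 10 for Klf2, by 1.07 to 2.59 times, and for Klf4, by 2.04 to 6.04 times. The same held for Klf6, by 1.29 to 2.84 times, Klf7, by 1.24 to 2.32 times, and Klf10, by 1.17 to 4.21 times. It also held for Jun, by 1.53 to 3.90 times. Klf9 was higher in 9 of 10, Klf3 in 8 of 10, Klf13 in 6 of 10 and Klf15 in 2 of 10. These are descriptions of clusters, with no test. Arterial-like endothelial cells, 341 in all, could be set beside the other endothelial cells of the same library in 8 libraries. Klf3 was higher in the arterial-like cells in 8 of 8, by 1.11 to 1.62 times, on 8 to 33 UMIs a library. Klf2 ran from 0.775 to 1.30 times and Klf4 from 0.599 to 1.45 times, with no steady direction for either.

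Klf9, Klf13 and Klf15 had no endothelial peak. Klf9, induced by glucocorticoid and thyroid hormones, was spread over most classes. It was at 284 ± 103 CPM (SD, n = 6) in smooth muscle cells, 280.0 ± 81.9 CPM (SD, n = 10) in endothelial cells and 266 ± 86.1 CPM (SD, n = 10) in pericytes. Astrocytes held 230.4 ± 81.3 CPM (SD, n = 10) and excitatory neurons 214 ± 101 CPM (SD, n = 10). Endothelial cells did not differ past the test from pericytes or astrocytes (adjusted p = 0.106 and 0.0810 by edgeR), but lay higher than excitatory neurons, with a log2 ratio of 0.66 (SE 0.16, adjusted p = 9.72e-05 by edgeR). Smooth muscle cells were above endothelial cells in 3 of 6 libraries (log2 fold change 0.04, SE 0.22, adjusted p = 0.914). Inhibitory neurons and microglia were lowest, at 73.2 and 73.3 CPM. Excitatory neurons were above inhibitory neurons in every library, with 117 to 366 CPM against 42.6 to 119 CPM.

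Klf13, a Sin3A-recruiting factor, was highest in oligodendrocytes, with 266, 472, 322, 540.2 and 473 CPM in rank 1 and 552, 356, 442, 544 and 509 CPM in rank 4. The ranks overlapped over most of their range. Committed precursors followed at 308 ± 96.7 CPM (SD, n = 7), below oligodendrocytes in 5 of 7 libraries (log2 fold change 1.05, SE 0.19, adjusted p = 8.39e-06). The median gene was at 0.24 in that contrast, and at -0.08 with relative log expression scaling, under which Klf13 was at 0.75. Oligodendrocyte precursors, the earliest stage of the lineage, held 114 ± 18.3 CPM (SD, n = 10), less than in any oligodendrocyte sample. Endothelial cells and excitatory neurons held 303 and 274 CPM. Astrocytes were lowest at 65.9 ± 28.4 CPM (SD, n = 10). Thinned to 1000 UMIs, 32.8% of oligodendrocytes and 5.99% of astrocytes had a UMI.

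Klf15, a glucocorticoid-induced regulator of amino acid and lipid metabolism, was highest in astrocytes. They held 109, 159, 201, 96.0 and 83.1 CPM in rank 1 and 102, 217, 191, 90.9 and 82.6 CPM in rank 4. Oligodendrocyte precursors followed at 41.3 ± 16.4 CPM (SD, n = 10), below astrocytes in 10 of 10 libraries (log2 fold change 2.01, SE 0.16, adjusted p = 2.44e-20). Endothelial cells, which led for Klf2 and Klf4, held 3.59 ± 3.05 CPM (SD, n = 10) on 32 UMIs in all, with none in replicates 2, 3 and 4 of rank 1. In the 4 libraries with at least 20 perivascular macrophages, no UMI was found among 155073 UMIs of 109 such cells, which allows up to 19.3 CPM (3 counts, counting error only). The thinned share was 12.8% ± 5.92 (SD, n = 10) in astrocytes and 0.368% in endothelial cells.

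Within excitatory neurons the broad factors differed by layer, among the 5 named subclasses. No subclass name was given to 4821 of the 16247 excitatory neurons, which these levels leave out. L6 CT neurons, which project from layer 6 to the thalamus, held the most Klf9, at 352 ± 129 CPM (SD, n = 8), and were highest in 8 of 8 libraries. The other subclasses lay between 145 CPM (L5/6 NP) and 196 CPM (L5 PT). Klf13 was likewise highest in L6 CT neurons in 8 of 8 libraries, at 370.4 ± 44.2 CPM (SD, n = 8), and lowest in L5/6 NP neurons in 6 of 7 libraries, at 164 ± 34.2 CPM (SD, n = 7). Klf10 was at 78.8 ± 18.8 CPM (SD, n = 8) in L6 CT and 66.8 ± 22.2 CPM (SD, n = 10) in L5 IT neurons, and at 23.3 ± 10.6 CPM (SD, n = 10) in L2/3 IT neurons. Klf6 was highest in L5 IT neurons in 10 of 10 libraries, at 124 ± 39.1 CPM (SD, n = 10), with the other 4 subclasses between 68.7 and 75.3 CPM. Klf7 was highest in L6 CT neurons in 6 of 8 libraries and lowest in L2/3 IT neurons in 7 of 10. These orders were not tested.

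Over 97 class and library points, the gene most like Klf2 among 11661 genes was Klf4, with a Pearson correlation of log2(CPM + 10) of 0.90, and the reverse held too. The points share libraries and depth, so the values describe and carry no test. Within endothelial cells alone, Klf2 and Klf4 did not take the same order of libraries in either rank. The 3 closest genes were Klf4 (0.90), Cracr2b (0.88) and Fn1 (0.87) for Klf2 and Klf2 (0.90), Ahnak (0.88) and Tpm4 (0.88) for Klf4. They were Smagp (0.82), Gimap6 (0.81) and Dusp1 (0.79) for Klf6, Cd34 (0.78), Alas1 (0.78) and Gch1 (0.75) for Klf10, Gbp7 (0.74), Itpkb (0.73) and Ifnar2 (0.72) for Klf3 and Tjp1 (0.75), Wwc2 (0.72) and Ccdc141 (0.70) for Klf7. They were Mprip (0.78), Syne1 (0.75) and Nedd4 (0.75) for Klf9, App (0.78), Prickle1 (0.72) and Ypel2 (0.71) for Klf13 and Abhd3 (0.84), Sfxn5 (0.81) and Msi1 (0.81) for Klf15. Among the members, Klf6 correlated with Klf2 at 0.76 and with Klf10 at 0.62, and Klf7 with Klf9 at 0.65. Klf15 was negatively correlated with Klf6, at -0.53.

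**Figure D2:**
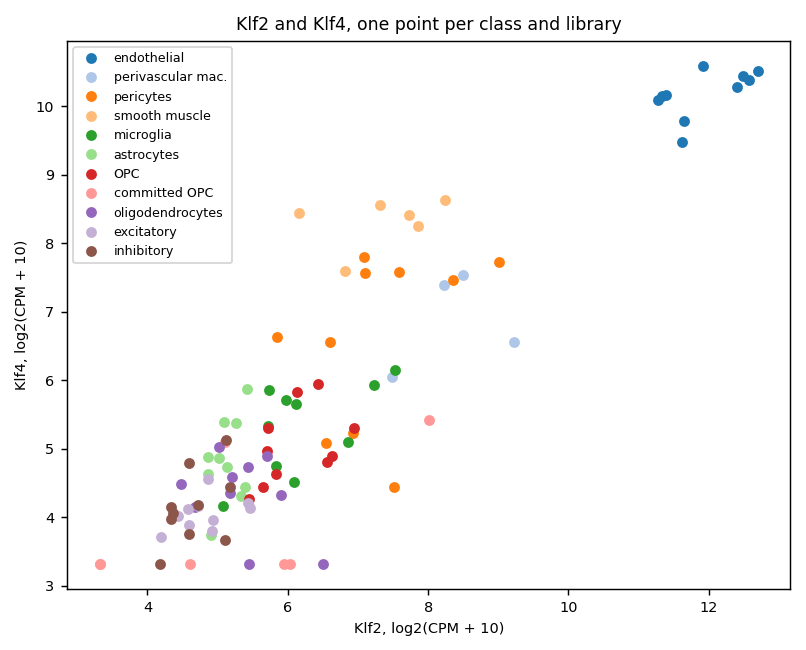
Klf2 (horizontal) against Klf4 (vertical), both as log2(CPM + 10). Each point is 1 cell class in 1 library and colour gives the class. Endothelial points stand apart at the upper right, and neurons and glia gather at the lower left, with a correlation of 0.90 over all 97 points.

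Set directly against other classes in the same fit, 8 of the 9 genes were higher in endothelial cells than in excitatory neurons and 1, Klf15, was lower, where 35.6% of all genes tested were higher in endothelial cells and 40.2% lower. Against astrocytes 7 were higher and Klf15 was lower (all genes 28.7% higher, 31.3% lower), with Klf9 at 0.31 not called, though it was in 5 of 16 other settings. Against microglia 8 were higher and Klf15 was lower (all genes 22.3% higher, 20.5% lower). Against pericytes 7 were higher and Klf15 was lower (all genes 20.6% higher, 33.6% in either direction), with Klf9 again not called (0.36, called in 1 of 16). The median log2 fold change of the 9 ran from 1.53 against pericytes to 2.21 against astrocytes, where the median of all genes ran from -0.07 to 0.03 over the 4 contrasts. With relative log expression scaling the all-gene medians ran from -0.32 to -0.07, and the smallest of the calls, Klf13 against excitatory neurons (0.34), ended at 0.09. It was called in 11 of 16 other settings, and Klf15 against microglia (-0.92), which rests on few UMIs, in 5 of 16. For the first and second classes compared above, the share of all genes higher in the first was 21.3% against perivascular macrophages, 21.5% against smooth muscle cells, 22.2% for astrocytes over oligodendrocyte precursors, 12.5% for oligodendrocytes over committed precursors and 9.42% for smooth muscle cells over endothelial cells. Relative log expression scaling moved the share of calls that were higher in the first class from 82.3% to 45.8% against perivascular macrophages, from 69.6% to 56.6% against smooth muscle cells and from 66.5% to 42.7% for oligodendrocytes over committed precursors. The first and second class of a gene were picked from these same levels.

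No factor passed the test between the ranks in any class. In 8 classes 58 pairs of a factor and a class had enough counts, and 0 had an adjusted p under 0.05 in edgeR's quasi-likelihood test with the software version as covariate, where 0% of all 59857 tests over all genes were called. With an unadjusted p under 0.05 there was 1 pair, against 2.38% of all tests. DESeq2 found 0 pairs by either rule. Since each library pools mice that cannot be told apart, p-values measure the spread between libraries. The log2 fold changes, rank 1 over rank 4, ran from -0.38 to 0.47 with a median of 0.00418, and the 95% intervals had a median width of 1.10. In endothelial cells Klf2 differed by 0.07 (95% interval -0.57 to 0.72), Klf4 by -0.02 (95% interval -0.59 to 0.55) and Klf10 by -0.15 (95% interval -1.49 to 1.18). Klf9 in astrocytes gave -0.02 (95% interval -0.39 to 0.35), Klf13 in oligodendrocytes -0.24 (95% interval -0.74 to 0.27) and Klf15 in astrocytes -0.08 (95% interval -0.59 to 0.43). A log2 difference of 1 in either direction lay outside the intervals of Klf2, Klf4, Klf9, Klf13 and Klf15 just named, and inside that of Klf10 in this fit.

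The 1 pair with an unadjusted p under 0.05 was Klf13 in pericytes. It held 286, 213, 303, 286 and 274 CPM in rank 1 and 207, 173, 167, 213 and 199.9 CPM in rank 4. The rank 1 libraries lay above those of rank 4 but for replicate 2 of rank 1, which was level with replicate 4 of rank 4. The log2 fold change was 0.47 (SE 0.20, unadjusted p = 0.0313, adjusted p = 1.00 by edgeR), with 0.46 from the libraries of version 3.1.0 alone and 0.48 from those of version 4.0.0 alone. With the stricter cell filter it was 0.23 (unadjusted p = 0.368 by edgeR). Markers of oligodendrocytes, the class with the most Klf13, ranged in their sum from 31.6 to 1180 CPM in rank 1 pericytes and from 72.2 to 835 CPM in those of rank 4 over 6 markers, none of them at 0. The ranges overlapped, with the higher median in rank 4, and the part of these cells in the difference was not tested.

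In the excitatory subclasses and the arterial-like cells, 38 pairs were tested, of which 0 had an adjusted p and 1 an unadjusted p under 0.05, against 4.00% of all tests there. It was Klf6 in L6 CT neurons, with 78.7, 121, 70.9 and 70.9 CPM in replicates 1, 3, 4 and 5 of rank 1 and 39.8, 115, 54.2 and 46.3 CPM in the same replicates of rank 4. Each rank 1 library was above its rank 4 counterpart, while the 2 ranges overlapped through replicate 3 of rank 4. The log2 fold change was 0.51 (SE 0.21, unadjusted p = 0.0223, adjusted p = 1.00 by edgeR). Within replicates 1 to 3 it was 0.49 and within replicates 4 and 5 0.51, and without rank 4 replicate 1 it was 0.32.

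The deviations of libraries with the same replicate number were correlated in the 4 classes checked, though single factors could differ within a number. That check took the more highly expressed genes, 3663 to 4982 per class, and not all genes tested. The fit was therefore repeated with the replicate number as a block. Klf10 in endothelial cells then differed by -0.08 (95% interval -0.37 to 0.20), so that a log2 difference of 1 lay outside its interval too. Still 0 of 58 pairs passed after adjustment, while 0.242% of all tests did, and 4 had an unadjusted p under 0.05, against 10.1% of all tests. They were Klf13 in pericytes (0.48, adjusted p = 0.413), Klf13 in astrocytes (-0.38, adjusted p = 0.234), Klf6 in excitatory neurons (0.30, adjusted p = 0.248) and Klf10 in excitatory neurons (-0.26, adjusted p = 0.336), all by edgeR. In the subclasses the block gave 4 of 38 at an unadjusted p under 0.05, 2 higher and 2 lower in rank 1. Of all tests there, 3.89% met that rule higher in rank 1 and 5.11% met it lower. The 4 pairs were Klf6 in L6 CT (0.56, adjusted p = 0.104) and L5 IT neurons (0.32, adjusted p = 0.280), and Klf10 in L2/3 IT (-0.57, adjusted p = 0.351) and L5 IT neurons (-0.37, adjusted p = 0.299), none of which passed the test after adjustment. Of the gene lists around the factors, none had a called gene between the ranks without the block. With it, 4 of 92 tests of immediate early genes were called, those of Egr3 (-1.05) and Nr4a1 (-0.75) in astrocytes and of Egr1 (-0.56) and Btg2 (0.74) in excitatory neurons. For the glucocorticoid-responsive genes 3 of 72 were called, Tsc22d3 in astrocytes (-0.63) and endothelial cells (-0.51) and Cdkn1a in excitatory neurons (-0.79), and for the targets of Klf2 and Klf4 1 of 20, Vcam1 in endothelial cells (1.15), each value a log2 fold change of rank 1 over rank 4.

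**Figure D3:**
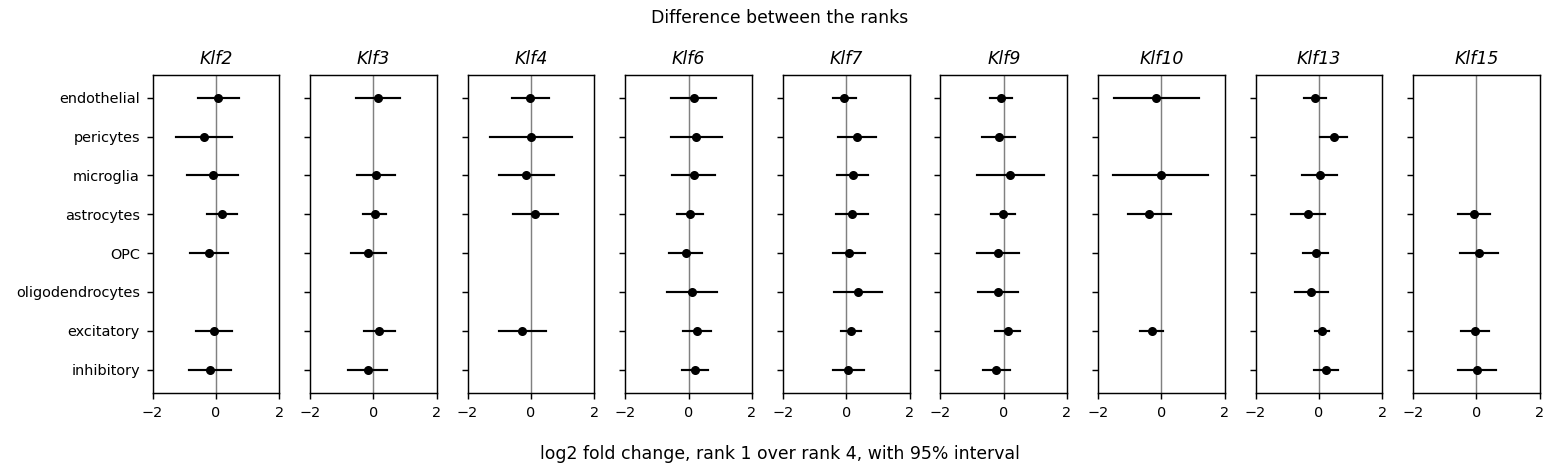
Difference between the ranks for each factor in the classes where it could be tested, as the log2 fold change of rank 1 over rank 4 (horizontal, point) with its 95% interval (bar). Classes are rows and 0 is the grey line. All but 1 interval, that of Klf13 in pericytes, include 0.

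Within each rank, levels varied between libraries along with the replicate number. In astrocytes Klf9 held 199.8, 148, 177, 338 and 279 CPM in rank 1 and 202, 167, 140.5, 369.5 and 284 CPM in rank 4. In excitatory neurons Klf9 held 217, 120.2, 125, 265 and 366 CPM and 129.9, 134, 117, 341 and 320.5 CPM. In both classes the 4 libraries of replicates 4 and 5 lay above the other 6. In microglia Klf9 was at 56.4, 5.37, 12.7, 96.9 and 188 CPM in rank 1 and 41.7, 5.27, 9.09, 222 and 95.8 CPM in rank 4, with replicates 2 and 3 lowest, on 1 to 6 UMIs a library.

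The software version was then tested over the 10 libraries, with the rank as covariate, and with the 2 ranks of a number summed. Both tests were added after these values were seen. Same-numbered libraries deviated together, so the first takes as independent what is only 3 replicate numbers against 2, and its p-values are too small. Over the 10 libraries 11 of 58 pairs were called higher in replicates 4 and 5 and 9 lower, against 18.6% and 20.4% of all tests over all genes. Over the 5 sums 3 of 66 pairs were called higher and 3 lower, against 6.06% and 6.40% of all tests. The members' shares were thus near or below those of all genes in each direction.

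Klf9 was called higher in 8 of 8 classes over the 10 libraries, by log2 fold changes from 0.64 in endothelial cells to 2.20 in microglia. Over the 5 sums the call stood in excitatory neurons (1.18, adjusted p = 0.0128) and inhibitory neurons (0.94, adjusted p = 0.0233) and in none of the other 6 classes by edgeR, with astrocytes at 0.70, adjusted p = 0.0904. Over the libraries, leaving out rank 1 replicate 5 or rank 4 replicate 4 left 4 classes, and leaving out rank 1 replicate 3, rank 4 replicate 2 or rank 4 replicate 3 left 5. Klf15 was lower in 3 of 4 classes over the libraries. Over the sums it was lower in excitatory neurons (-1.01, adjusted p = 0.0344) and inhibitory neurons (-1.36, adjusted p = 0.0212) by edgeR, while astrocytes missed the threshold (-1.10, adjusted p = 0.0543). Klf2 was lower in 5 of 7 classes over the libraries, in only 1 to 3 without rank 1 replicate 4, rank 1 replicate 5, rank 4 replicate 3, rank 4 replicate 4 or rank 4 replicate 5, and over the sums in excitatory neurons alone (-0.94, adjusted p = 0.0292). In endothelial cells, where its level is highest, Klf2 did not pass over the sums (-1.04, adjusted p = 0.187). Klf4 was higher in astrocytes over the sums (1.14, adjusted p = 0.0389) and over the libraries (1.18), the latter call ending without rank 1 replicate 5. The calls over the libraries for Klf7, Klf13 and Klf6 in excitatory neurons were absent over the sums, and Klf10 was called in no class by either. Without the 2 libraries of replicate 1, chosen because they stood apart, a fit that sets only 2 replicate numbers against 2 and whose p-values are likewise too small, 18 of 57 pairs were called higher and 18 lower, where 30.6% and 30.1% of all tests were. Klf10 was called lower in that fit in endothelial cells (-1.76) and in microglia (-2.19), against -1.23 and -1.68 over the 10 libraries, so whether Klf10 is called depends on replicate 1. The software version, the gene list that came with it and the replicate number cannot be told apart here.

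**Figure D4:**
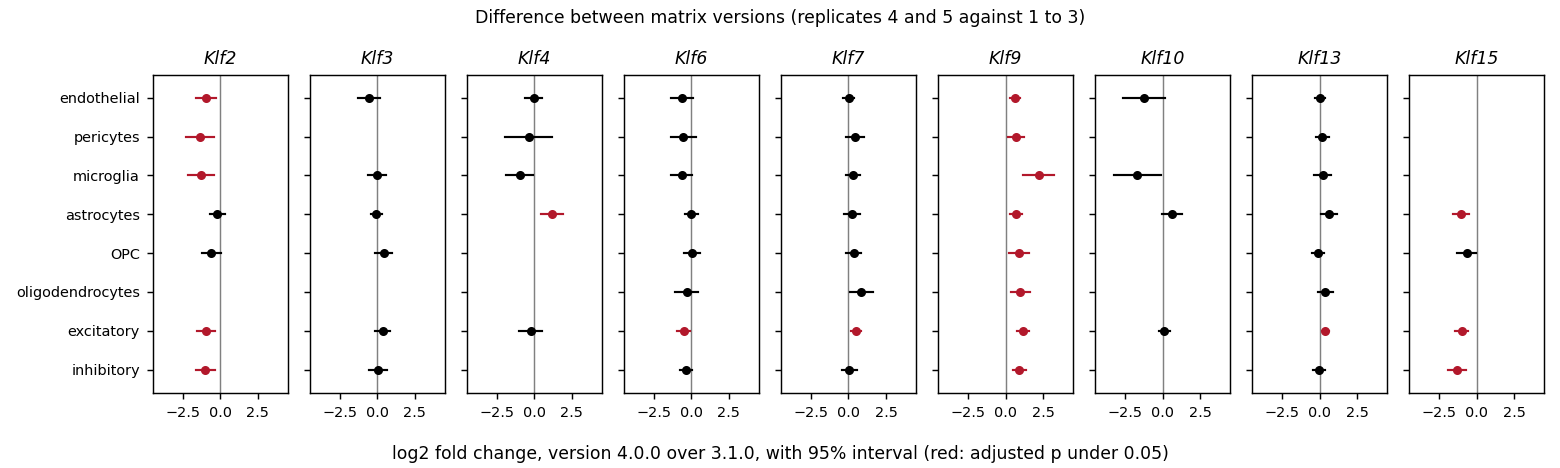
Log2 fold change of libraries with a version 4.0.0 matrix (replicates 4 and 5) over those with version 3.1.0 (replicates 1 to 3), with its 95% interval, by class (rows) and factor (panels). Red marks an adjusted p under 0.05 in the test over 10 libraries. Klf9 lies to the right of 0 in all 8 classes, and Klf2 to the left in all 7 in which it was tested.

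Other measures moved with the same libraries. In excitatory neurons, L6 CT cells, the subclass with most Klf9, made up 19.5% to 34.5% of the class in replicates 4 and 5 and 1.48% to 17.0% in replicates 1 to 3. Within L2/3 IT neurons alone Klf9 was at 169, 129, 123, 175 and 217 CPM in rank 1 and 128, 137, 129.7, 258 and 238 CPM in rank 4, where replicates 4 and 5 again lay above all others. In L6 CT neurons it was at 357, 187, 429 and 498 CPM in replicates 1, 3, 4 and 5 of rank 1 and 242, 188, 469.9 and 444 CPM in those of rank 4, with the same split. In endothelial cells, the summed level of 15 immediate early genes, which respond to stimulation within a short time, was 6062, 15130, 16938, 9997 and 7216 CPM in rank 1 and 5090, 15070, 14981, 6749 and 7801 CPM in rank 4. Its peak in replicates 2 and 3 was that of Klf2, Klf6 and Klf10, and its part in those levels was not tested. The 12 glucocorticoid-responsive genes in astrocytes summed to 2192, 2529, 2794, 1056 and 1283 CPM in rank 1 and 2864, 2854, 3514, 1322 and 1489 CPM in rank 4, lowest in replicates 4 and 5, where Klf15 was low and Klf9 high. In excitatory neurons, where Klf15 was lower and Klf9 higher in replicates 4 and 5 as well, the same genes summed to 462, 428, 444, 404 and 475 CPM in rank 1 and 581, 449.8, 548, 449.9 and 493 CPM in rank 4, where replicates 4 and 5 lay among or beside the others, with no such drop. For every replicate number the sum of the glucocorticoid-responsive genes was lower in rank 1 than in rank 4 in these 2 classes. In endothelial cells replicate 3 and in microglia replicate 4 went the other way, and the sums were not tested. The 11 circadian clock genes ran from 706 to 1171 CPM in astrocytes, with both libraries of replicate 4 above all others and both of replicate 5 inside the range of replicates 1 to 3. In microglia their sum was 283, 258, 212, 357 and 469 CPM in rank 1 and 295, 285, 244, 451 and 360.4 CPM in rank 4, where replicates 4 and 5 lay above all others, as they did for Klf9. In excitatory neurons the clock genes summed to 690, 874, 777, 826 and 857 CPM in rank 1. In rank 4 they summed to 800, 904, 729, 899.5 and 848 CPM there, so replicates 4 and 5 did not stand apart, although Klf9 did. Endothelial cells ran from 331 to 551 CPM, with replicates 4 and 5 inside the range of the others. The part of these genes in the Klf9 and Klf15 levels was not tested.

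**Figure D5:**
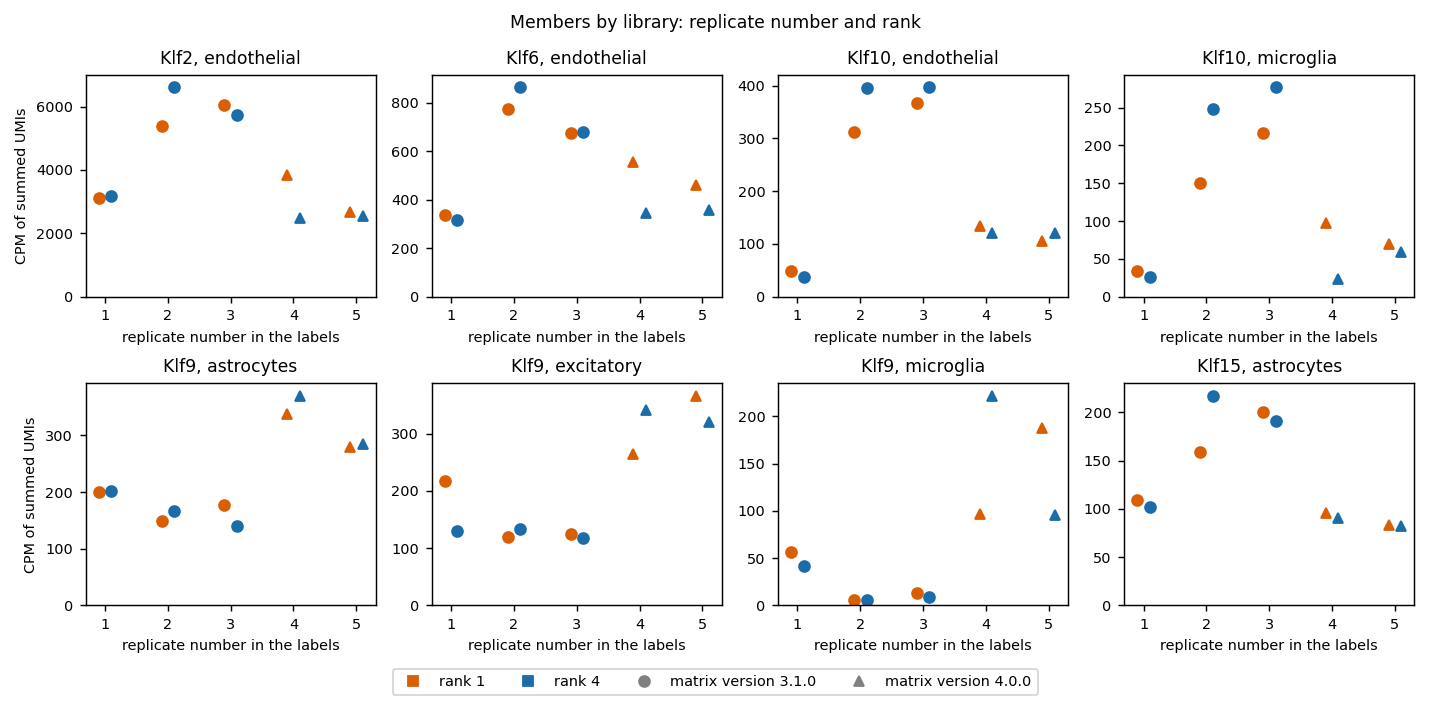
CPM of summed UMIs (vertical, from 0) by the replicate number of the labels (horizontal) for 8 pairs of a factor and a class. Colour gives the rank and shape the software version of the matrix. In both ranks Klf2, Klf6 and Klf10 in endothelial cells are highest in replicates 2 and 3, Klf9 is high in replicates 4 and 5, and Klf15 in astrocytes is lowest there.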

How the data were processed

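Single-cell RNA-seq of the mouse medial prefrontal cortex gave 10 libraries, 5 per rank, each from 2 or 3 pooled mice. The authors deposited 1 matrix of raw UMI counts per library, with no normalization, since the deposited values are whole numbers with a different total in each library. The submitters' processing notes name Cell Ranger 4.0.0 and mm10, while the file headers give software version 3.1.0 for replicates 1 to 3 and 4.0.0 for replicates 4 and 5. The annotation release, the cell calling and the use of strand are not given in the sources used here.

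Cells with at least 500 genes and at most 15% mitochondrial UMIs were kept. Doublets were scored against simulated pairs, and 4820 barcodes, 0.8% per 1000 barcodes of a library, were removed. Leiden clustering (leidenalg 0.10.2, resolution 1) on 2000 variable genes left out the 9 factors. Counts were summed per library and class with at least 20 cells. Libraries held 4442750 to 29278466 UMIs per library before division into classes, and intervals at a count of 0 cover counting error only. Ranks were tested per class over all genes with edgeR 4.0.16 (quasi-likelihood test, TMM factors, software version as covariate, Benjamini-Hochberg adjustment, threshold 0.05), in classes with at least 3 libraries per rank. Classes were compared in 1 edgeR fit with the library as a block. DESeq2 1.42.0 was an alternative, as were other scaling, filters, resolutions and left-out libraries. The fits were run on simulated counts with known changes, drawn independently for each library. Those counts held no deviation shared by replicate number, so they do not check the fits under it.

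The replicate numbers are those of the labels. In 4 classes the deviations of same-numbered libraries of the 2 ranks correlated at 0.64 or more for every number, over the more highly expressed genes. The numbers were thus taken to pair the libraries, although only 6 or 7 of the 10 libraries in a class correlated best with their own number. That rests on the data, since the labels do not say what a number marks.

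The genes named are the 9 factors in every class, the rank differences with an unadjusted p under 0.05, the 3 genes most alike in pattern among those with at least 20 CPM in a class, and genes of the lists. Promoter windows are from RefSeq and positions from GENCODE. The factors, lists and tests were chosen with earlier results of these data known, and the test of the software version was added after the levels were seen.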

Additional observations from a re-analysis of the deposited data

Results flagged for a closer look

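The 101 pairs looked at were those tested between the ranks, in the classes, the excitatory subclasses and the arterial cells, and each factor in its first and second class. They gave 191 sets of 4 or 5 libraries of 1 rank, and 9 sets held a library far from the others by the gap to its nearest neighbour over the range of the set. Chance marks about 1 in 20 such sets.

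Klf2 in microglia had a gap of 0.880 of the range, with 175 CPM in rank 1 replicate 1 against 58.3 CPM in the next library and 42.4 CPM in the lowest. Within rank 4, replicate 1 was also the highest library, at 141 CPM. The 7 endothelial markers in those microglia summed to 317 CPM in rank 1 replicate 1, against 38.2 to 287 CPM in the other 4 libraries of rank 1, and to 123 CPM in rank 4 replicate 1. Klf2 in inhibitory neurons of rank 1 replicate 1 was at 26.2 CPM, against 14.2 CPM in the next library, and the endothelial markers there summed to 196 CPM against 67.5 to 119 CPM. The part of those markers in the Klf2 levels was not tested.

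Klf7, a factor known for axon growth, stood at 296 CPM in pericytes of rank 1 replicate 4, against 169 CPM in the next library. Klf6 stood at 121 CPM in L6 CT neurons of rank 1 replicate 3, against 78.7 CPM in the next of 4 libraries. Replicate 3 was also the highest library for Klf6 in L6 CT neurons of rank 4, at 115 CPM. In arterial endothelial cells Klf6 was at 820.0 CPM in rank 4 replicate 3, against 372 CPM in the next of 4 libraries, and Klf7 was low in rank 1 replicate 3, at 85.2 against 195 CPM. Klf13 was low in L5/6 NP neurons of rank 1 replicate 1, at 109 against 192 CPM, and in oligodendrocyte precursors of rank 1 replicate 4, at 73.6 against 112 CPM. Klf15 was low in L2/3 IT neurons of rank 1 replicate 5, at 8.48 against 21.2 CPM, on 8 UMIs.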

How the results depend on the processing

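No pair of a factor and a class passed adjustment between the ranks under any alternative run. The number of class pairs with an unadjusted p under 0.05, 1 as reported, was 0 with DESeq2, with no filter on low counts, with no version covariate and in replicates 1 to 3, was 3 in replicates 4 and 5, and ran from 0 to 2 without single libraries. It was 4 with the replicate block. With the stricter cell filter it was 1, but a different pair, lower in rank 1. In the subclasses the number, 1 as reported, was 0 with DESeq2, with no version covariate and in replicates 1 to 3, was 4 with no filter and 2 in replicates 4 and 5, and ran from 0 to 3 without single libraries. It was 4 with the replicate block, which changed no other call of a factor.

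The log2 rank differences changed sign, none of them past the test, as follows. In endothelial cells Klf2 was at -0.012 with no version covariate. Replicates 1 to 3 gave -0.17 for Klf2, -0.065 for Klf3 and -0.13 for Klf6. Replicates 4 and 5 gave 0.35 for Klf4, 0.16 for Klf7 and 0.029 for Klf10, 0.0064 for Klf13 in oligodendrocytes and 0.055 for Klf15 in astrocytes. Without single libraries the ranges were -0.088 to 0.26 for Klf2, -0.047 to 0.36 for Klf3, -0.16 to 0.16 for Klf4, -0.00687 to 0.391 for Klf6, -0.171 to 0.00481 for Klf7, -0.47 to 0.17 for Klf10 and -0.23 to 0.059 for Klf15.

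Between classes, Klf3 in endothelial cells over microglia was at 0.45 in replicates 4 and 5 and Klf10 at 0.49 in replicates 1 to 3, neither past the test, and without single libraries Klf10 ran from 0.55 to 0.80. Klf6 over perivascular macrophages was at 0.076 with relative log expression scaling and ran from 0.54 to 1.31 without single libraries. Klf9 in smooth muscle over endothelial cells ran from -0.12 to 0.22 without single libraries. The classes in which Klf9 differed by software version numbered 4 to 8 and those of Klf2 1 to 5 without single libraries, and with the ranks summed per replicate number they were 2 and 1. Where an alternative used fewer libraries the fit had fewer samples; for the others the cause was not tested. In perivascular macrophages and smooth muscle cells, few cells limit every value.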
